A study of Bos taurus with 106 samples.

Results

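The liver of cows that had been fed a restricted ration before calving was compared between day 28 and day 14 of lactation. The comparison used 16 of the 106 arrays in the study, chosen by their labels alone: every array of a restricted cow on day 28 (8 arrays) or on day 14 (8 arrays). They come from 4 Holstein cows, numbered 6877, 6952, 7045 and 7105, each sampled on both days and hybridised on both days with liver in Cy3 on 1 array and in Cy5 on another. The restricted cows had eaten about 80% of their estimated requirement of a 1.60 Mcal/kg diet throughout a dry period of 65 days. Set beside them are 4 Holstein cows on the same days (16 arrays) that had eaten a 1.60 Mcal/kg diet ad libitum, about 120% of requirement, over a dry period of the same length. The labels give the diet before calving, while lactation diet, age and milk yield do not appear in them.

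The liver of a dairy cow carries much of the metabolic load of early lactation. It makes glucose from propionate, lactate and amino acids for milk sugar, takes up fatty acids released from fat tissue, and oxidises them, turns them into ketone bodies or stores them as triglyceride. It also secretes most plasma proteins, among them iron carriers, complement inhibitors and acute phase proteins. As feed intake catches up with milk output, the supply of fat-derived fatty acids to the liver falls.

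Each array carries cDNA fragments spotted in duplicate and compares liver RNA with a reference RNA made from a mixture of tissues without liver. A value is the log2 ratio of liver to reference, with each array centred on its median and the 2 dye orientations of a cow and day averaged. A level is therefore relative to the median element of the array, not to equality with the reference. A change is the value on day 28 minus that on day 14, so that a change of 1 means 2 times the ratio on day 28. Of 8208 elements, 8196 were tested, and 5591 of these carry 1 gene symbol.

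Some facts about the arrays stand beside every result below. The cows did not move together: over all elements, the change in cow 6952 correlated at -0.28 with that in cow 6877 and at -0.27 with that in cow 7105, while cows 6877 and 7105 correlated at 0.64. These correlations are over elements of the same arrays and describe the cows, with no test. The dye orientations of a cow and day also agreed less well on day 14: their correlations over elements were 0.68 to 0.74 on day 28 and 0.34 to 0.80 on day 14. The spread between the 4 cows was wider as well on day 14, with a median SD per element of 0.20 on day 28 and 0.39 on day 14.

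Markers of liver cells were as high as the label implies. The 4 hepatocyte markers on the array averaged 4.22 to 4.43 per cow on day 28 and 3.40 to 4.52 on day 14. These are log2 ratios relative to the array median, and none was at or below that median. Markers of stellate cells and fibroblasts (8 measured of 16) averaged -2.10 to -1.89 on day 28 and -2.30 to -1.64 on day 14. Markers of Kupffer cells and macrophages (12 of 19) averaged 2.30 to 2.96 on day 28 and 2.11 to 2.70 on day 14, and no erythrocyte marker of 11 was measured.

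In the restricted cows 617 elements passed the test at an adjusted p under 0.05, which is 7.53% of those tested. Of these, 527 were higher on day 28 (6.43% of all tested) and 90 were lower (1.1%). The higher elements had a median level of -0.07 on day 28 and -0.89 on day 14. The lower ones had a median level of -0.73 on day 28 and 0.02 on day 14. All 90 lower elements and 519 of the 527 higher ones changed in the same direction in 4 of 4 cows. Among the 7958 elements with a value in every cow on both days, 13.7% were higher and 10.4% lower in 4 of 4 cows. The called elements were chosen on the mean of these same changes, which favours agreement in sign. The test was limma's moderated test with cow as a random block, fitted to the 16 cow-days of both diets, with Benjamini-Hochberg adjustment over all elements. The estimated within-cow correlation was 0.00047, so this fit in effect did not pair the days.

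These calls rest on the pooled spread of both diets and on particular cows. A fit of the 8 restricted cow-days paired by cow called 0 elements, with 1275 at an unadjusted p under 0.05, against 1576 in the fit above. Leaving out cow 6877, 7045 or 7105 also called 0 elements each, while leaving out cow 6952 called 1014, of which 835 were higher and 179 lower. The balance of the calls moved with the scaling: 85.41% of them were higher in the fit above, against 233 higher and 166 lower (58.4%) with arrays scaled to a common spread, 88 and 64 (57.89%) after quantile normalization, and 0 called with arrays left uncentred.

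The calls were also larger in 1 dye orientation. The median change of the 527 higher elements was 1.33 with liver in Cy3 and 0.30 with liver in Cy5. For the 90 lower elements it was -1.07 with liver in Cy3 and -0.52 with liver in Cy5. Counting both orientations of every cow apart, 295 of the 527 higher and 45 of the 90 lower elements had the same sign in 8 of 8 changes, against 6.67% of all elements. These changes make up the mean on which the elements were chosen, so the contrast with all elements is no separate support. With liver in Cy3 alone 1251 elements were called, and with liver in Cy5 alone 0, with 447 at an unadjusted p under 0.05. Position among the spots moved with the higher calls too. The spot numbers fall into 48 runs of 342, and the first 126 of each run hold 36.88% of all elements. There lay 68.5% of the higher elements and 30% of the lower ones. The run length was chosen after the values were seen, so these shares describe the calls without testing them. The part of dye, of spot position and of the reference RNA in the calls was not tested.

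**Figure D1:**
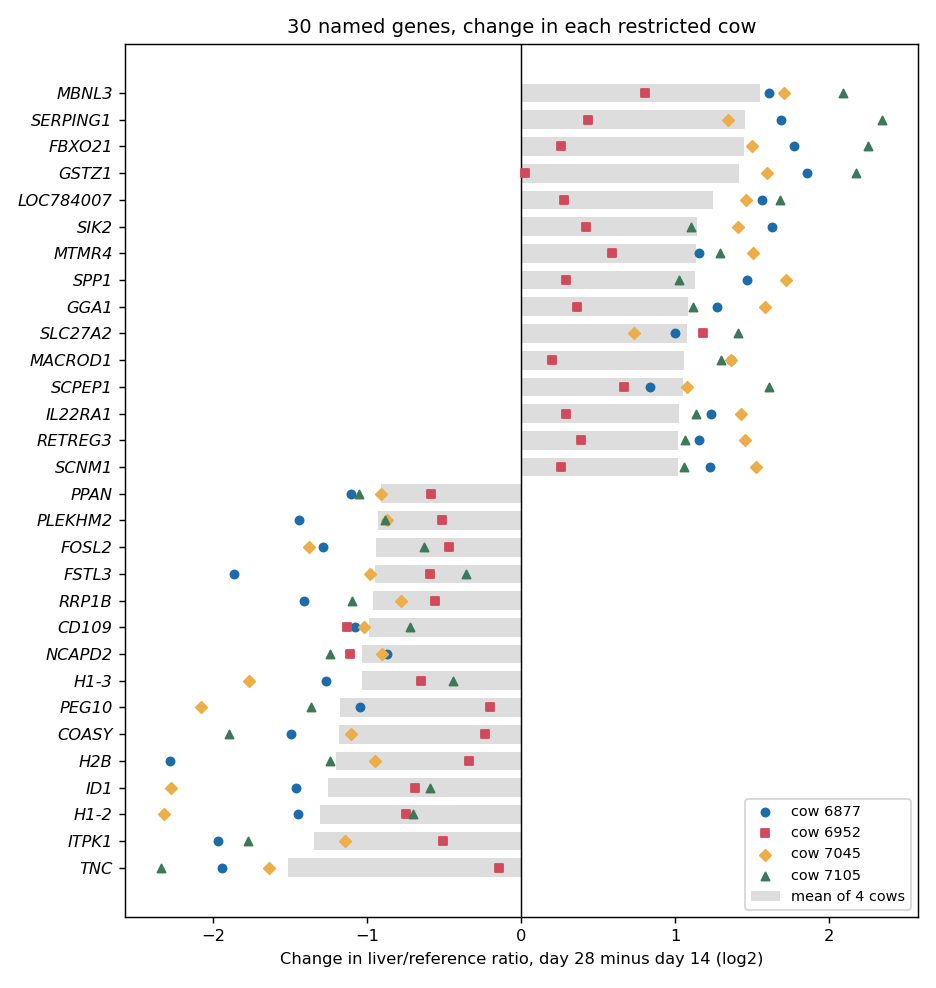
Change from day 14 to day 28 (log2 of the liver to reference ratio, x axis) of the 15 named genes with the largest increase and the 15 with the largest decrease; points are the 4 restricted cows and bars their mean. Cow 6952 (squares) has the smallest increase in 14 of the 15 genes that rose and lies near 0 for TNC and GSTZ1.

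Among the genes that rose, SERPING1, SLC27A2 and TF were above the array median in every cow on both days. The lowest of these levels was 0.28, for SLC27A2 in cow 7105 on day 14. SERPING1 encodes the C1 inhibitor, a plasma protein that restrains the complement and contact systems. Its levels were 3.83, 4.49, 3.60 and 4.21 on day 28 in cows 6877, 6952, 7045 and 7105, against 2.15, 4.05, 2.26 and 1.87 on day 14. The value of cow 6952 on day 14 lay within the range of day 28, so that the groups overlap. The change was 1.45 ± 0.38 (SE of the fit, n = 4 cows a day; adjusted p = 0.0332), the second largest of the named increases. Here and below, the SE of a change comes from the spread pooled over both diets, not from the restricted cows alone. The SD of SERPING1 in the 4 restricted cows was 0.39 on day 28 and 0.99 on day 14.

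SLC27A2 encodes a very long chain acyl-CoA synthetase that also carries fatty acids into hepatocytes and conjugates bile acids. It stood at 2.37, 2.51, 1.88 and 1.69 on day 28, against 1.37, 1.33, 1.16 and 0.28 on day 14. All 4 cows were higher on day 28, as the choice required, and the groups did not overlap. The change was 1.08 ± 0.26 (adjusted p = 0.0311), and cow 6952 moved as far as the others, by 1.18. TF, which encodes transferrin, the iron carrier of plasma, had levels of 5.01, 5.44, 4.58 and 5.16 on day 28, against 4.01, 4.23, 3.92 and 4.26 on day 14. Its groups did not overlap either, and its change was 0.94 ± 0.22 (adjusted p = 0.0311). The orientation-matched changes that make up this mean were positive in 8 of 8 (1.02 with liver in Cy3 and 0.87 with liver in Cy5). The same held for 295 of the 527 higher elements.

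MBNL3, a regulator of alternative splicing, had the largest increase of the named genes. It was measured at 0.68, 1.21, 0.75 and 0.81 on day 28, against -0.93, 0.41, -0.96 and -1.28 on day 14. The groups did not overlap, and the change was 1.55 ± 0.27 (adjusted p = 0.0311). GSTZ1, an enzyme of tyrosine breakdown, was at 2.23, 2.37, 2.08 and 2.15 on day 28 and at 0.38, 2.35, 0.49 and -0.03 on day 14. Cow 6952 changed by 0.02 while the other 3 cows changed by 1.59 to 2.18, and the mean change was 1.41 ± 0.37 (adjusted p = 0.0332). FBXO21, a subunit that guides ubiquitin ligases to their substrates, rose by 1.44 ± 0.32 (adjusted p = 0.0311), with a change of 0.26 in cow 6952.

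The other genes of the 15 largest increases were LOC784007, SIK2, MTMR4, SPP1, GGA1, MACROD1, SCPEP1, IL22RA1, RETREG3 and SCNM1, with changes of 1.02 to 1.24. Their roles differ: SIK2 is a kinase that acts on cAMP-regulated transcription, MTMR4 a phosphoinositide phosphatase, GGA1 a sorting adaptor of the Golgi and RETREG3 a receptor for the turnover of the endoplasmic reticulum. SPP1, osteopontin, is also among the cholangiocyte markers. Its element had levels of -0.69 ± 0.18 on day 28 and -1.82 ± 0.64 on day 14 (SD, n = 4), while a second SPP1 element changed by 0.26 ± 0.25 (adjusted p = 0.69). Many of these elements share a profile over the cows: GGA1 changed by 1.27, 0.36, 1.58 and 1.11, IL22RA1 by 1.23, 0.29, 1.43 and 1.13, and SCNM1 by 1.22, 0.26, 1.52 and 1.06. The changes of GGA1, IL22RA1 and SCNM1 with liver in Cy5 were 0.40 to 0.50, against 1.58 to 1.66 with liver in Cy3. What lies behind the shared profile was not tested.

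**Figure D2:**
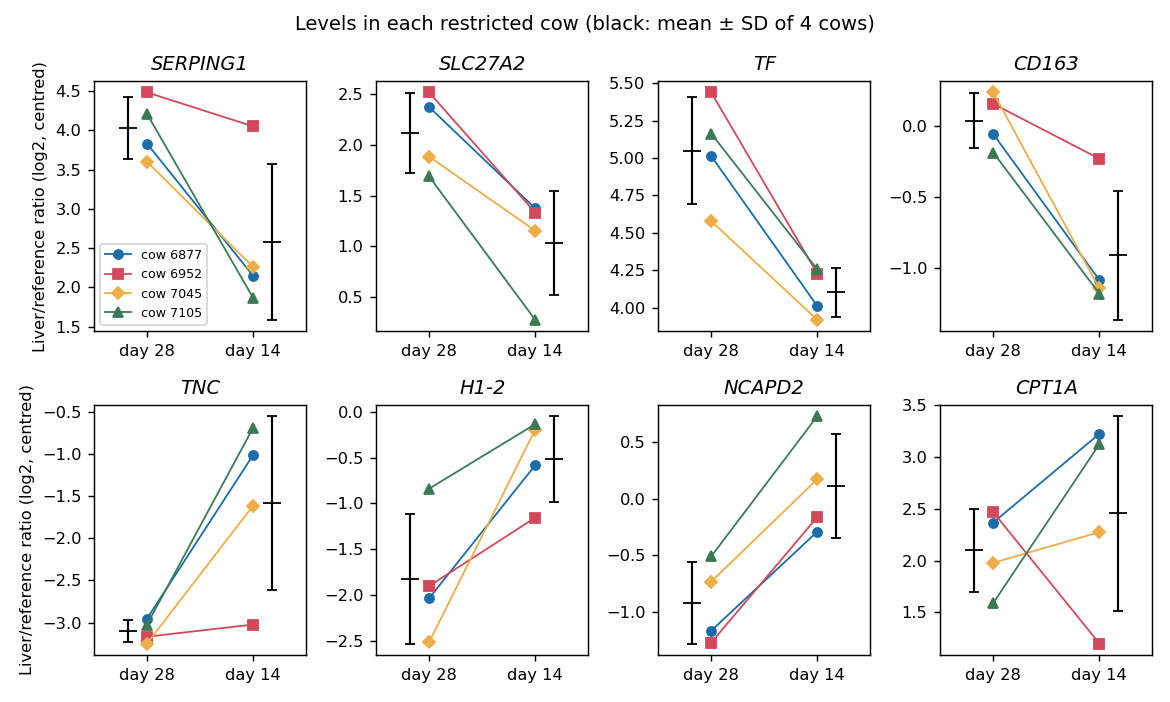
Level of 8 genes (log2 of the liver to reference ratio, each array centred on its median, y axis) in each restricted cow on day 28 and day 14; lines join the same cow, and black marks give the mean and SD of 4 cows. TF, SLC27A2 and CD163 do not overlap between the days, while cow 6952 runs against the other 3 cows for the CPT1A element shown.

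The genes with the largest decreases have varied roles. TNC encodes tenascin C, a matrix glycoprotein made in tissue remodelling. Its levels were -2.95, -3.17, -3.25 and -3.02 on day 28, against -1.01, -3.02, -1.61 and -0.69 on day 14. Cow 6952 was already at its day 28 level on day 14, and the other 3 cows fell to a common low level. TNC fell by 1.52 on the log2 scale (SE 0.38, adjusted p = 0.0311), and a second TNC element changed by -0.25 ± 0.23 (adjusted p = 0.673).

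Of the histone genes, H1-2, H1-3 and H2B fell. H1-2, a linker histone, was at -2.04, -1.90, -2.52 and -0.84 on day 28, against -0.58, -1.16, -0.19 and -0.13 on day 14. Every cow was lower on day 28, as the choice required, with some overlap between the days because of cow 7105. The changes were -1.31 ± 0.32 for H1-2 (adjusted p = 0.0311), -1.03 ± 0.30 for the linker histone H1-3 (adjusted p = 0.0463) and -1.21 ± 0.33 for the core histone H2B (adjusted p = 0.0395). Histone genes are near-identical copies of each other and a cDNA fragment can bind several of them, so these elements cannot be assigned to single genes. ID1, an inhibitor of helix-loop-helix transcription factors, changed by -1.26 ± 0.36 (adjusted p = 0.0455), with levels of -1.96, -1.88, -2.47 and -1.04 on day 28 and -0.50, -1.19, -0.19 and -0.45 on day 14, close to those of H1-2 in every cow.

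NCAPD2, a condensin subunit that compacts mitotic chromosomes, was at -1.17, -1.27, -0.73 and -0.51 on day 28, against -0.29, -0.16, 0.17 and 0.73 on day 14. The groups did not overlap and the 4 cows fell by similar amounts (-1.24 to -0.88), cow 6952 included, for a mean change of -1.03 ± 0.22 (adjusted p = 0.0311). CD109, a membrane protein that binds TGF-beta, changed by -0.99 ± 0.19 (adjusted p = 0.0311), with levels of -1.93 ± 0.32 on day 28 and -0.94 ± 0.26 on day 14 (SD, n = 4). The groups did not overlap, but the change was -1.68 with liver in Cy3 and -0.30 with liver in Cy5. PPAN and RRP1B, both nucleolar proteins of ribosome assembly, changed by -0.91 ± 0.18 and -0.96 ± 0.27 (adjusted p = 0.0311 and 0.0435). A second RRP1B element changed by -0.32 ± 0.26 (adjusted p = 0.601).

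COASY encodes the enzyme that completes coenzyme A synthesis. Its levels were 1.19, 1.45, 1.25 and 1.27 on day 28, against 2.69, 1.69, 2.36 and 3.17 on day 14. The groups did not overlap, and the change was -1.18 ± 0.31 (adjusted p = 0.0328). ITPK1, an inositol phosphate kinase, was at 0.37 ± 0.33 on day 28 and 1.72 ± 0.88 on day 14 (SD, n = 4), a change of -1.35 ± 0.36 (adjusted p = 0.0345). The remaining genes of the 15 largest decreases were PEG10, FSTL3, FOSL2 and PLEKHM2, with changes of -1.18 to -0.93. FSTL3 binds and blocks activins, and FOSL2 is a subunit of the transcription factor AP-1. A second FOSL2 element went the other way and passed the test (0.73 ± 0.19, adjusted p = 0.0332), so the array gives no single direction for FOSL2.

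Each gene of a list was counted by 1 element, and over all lists 13 of 378 measured genes were higher and 7 lower, 5.29% against 7.53% of all elements. List medians are to be read beside the median change of all elements, -0.03. A further 106 elements belong to list genes, and 9 of these passed: elements of FABP5, FOSL2, GOT1, IGFBP3, KDR, PECAM1, SOD2 and UQCRC2 were higher and 1 of LAMA5 was lower, named here after their values were seen. Apart from FOSL2 and LAMA5, the element counted for these genes did not pass. In fatty acid handling, SLC27A2 was the 1 member of 9 measured in the activation and binding list that passed, and the list's median was 0.01. Scaling arrays to a common spread gave larger medians for liver-rich lists (1.44 for secreted plasma proteins, 0.73 for beta-oxidation) and turned that of sterol synthesis positive (0.38), and without centring the median of all elements was -0.38 and that of beta-oxidation -0.13. A second element of FABP5, a fatty acid binding protein, passed (0.88 ± 0.24, adjusted p = 0.0386). Of 13 measured beta-oxidation genes none passed, with a median of 0.22 and 10 of the 13 above 0. ACADS, the short chain acyl-CoA dehydrogenase, changed by 0.61 ± 0.32 (adjusted p = 0.317). CPT1A, the gate for fatty acid entry into mitochondria, changed by -0.35 ± 0.35 (adjusted p = 0.702), while its second element changed by 0.25 ± 0.28. ACSL1, which activates long chain fatty acids, changed by 0.05 ± 0.29 (adjusted p = 0.973).

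In lipid synthesis, ACLY, which makes cytosolic acetyl-CoA, was the 1 of 6 lipogenic genes that passed. It was at -0.36 ± 0.20 on day 28 and -1.15 ± 0.51 on day 14 (SD, n = 4), a change of 0.79 ± 0.21 (adjusted p = 0.0328), but its second element changed by -0.23 ± 0.16. SREBF1, a transcription factor of lipogenesis, changed by 0.27 ± 0.52 (adjusted p = 0.884). Of 6 sterol synthesis genes none passed, and their median was -0.17.

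For glucose metabolism, none of 11 measured genes of gluconeogenesis and pyruvate fate passed by the element counted, with a median of 0.03. A second element of GOT1, the cytosolic aspartate aminotransferase, did pass (0.73 ± 0.20, adjusted p = 0.0386), while the one counted changed by 0.27 ± 0.40 (adjusted p = 0.834). PC, which makes oxaloacetate for gluconeogenesis, changed by 0.03 ± 0.17 (adjusted p = 0.968). PDHA1, the pyruvate dehydrogenase subunit that sends pyruvate to acetyl-CoA, was positive in 4 of 4 cows and in 8 of 8 orientation-matched changes without passing (0.50 ± 0.20, adjusted p = 0.166). Its second element changed by 0.23 ± 0.20 (adjusted p = 0.657) and was positive in 2 of 4 cows. In glycolysis, 1 of 13 measured genes passed: HK1, a hexokinase, rose by 0.95 ± 0.24 (adjusted p = 0.0311), while its second element changed by -0.33 ± 0.20. The list's median was -0.20, and ALDOA, aldolase A, had the largest negative value (-1.29 ± 0.50, adjusted p = 0.149), with levels of 1.30 and 1.25 in cows 6877 and 7105 on day 14 and of -1.59 to -1.01 in the 4 cows on day 28.

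Plasma protein and inflammation lists gave the following. SERPING1 was the 1 of 10 measured complement genes that passed (list median 0.14), and TF the 1 of 4 measured secreted plasma proteins (list median 0.28). With arrays scaled to a common spread, 6 of the 10 complement genes were higher, with a median of 0.97, against 2.84% of all elements under that scaling. No acute phase gene of 3 passed, with SERPINA3-3, a protease inhibitor, at 0.94 ± 0.42 (adjusted p = 0.231). Of 20 inflammatory and stress regulators, FOSL2 was lower by the element counted and higher by another, and no other gene passed, with a median of -0.12. JUN, the partner of FOS proteins in AP-1, had changes of -2.04, -0.45, -0.89 and -1.60 in the 4 cows without passing (-1.25 ± 0.50, adjusted p = 0.16).

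In the matrix list of 22 measured genes, 3 were lower and none higher, and the median was -0.07, beside 1.1% lower and 6.43% higher of all elements. With arrays scaled to a common spread 6 were lower, with a median of -0.41, against 2.03% of all elements. Besides TNC, the genes lower without that scaling were COL6A1, a chain of collagen VI (-0.91 ± 0.26, adjusted p = 0.044), and LAMA5, a laminin chain (-0.77 ± 0.18, adjusted p = 0.0311). COL6A1 changed by -1.49 with liver in Cy3 and -0.32 with liver in Cy5. All 4 LAMA5 elements were negative (-1.15 to -0.46). The named one had 8 of 8 orientation-matched changes below 0, as had 45 of the 90 lower elements. MMP2, a matrix metalloproteinase, was at -2.17 ± 0.13 on day 28 and -1.28 ± 0.51 on day 14 (SD, n = 4) and missed the threshold (-0.89 ± 0.27, adjusted p = 0.0523). In the list of histones and cell cycle genes, 3 of 21 were lower and 1 was higher, the histone variant H2AZ2 (0.62 ± 0.18, adjusted p = 0.0433), and the median was -0.16. With scaled arrays 5 were lower and none higher, with a median of -0.49, against 2.03% lower and 2.84% higher of all elements.

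Among housekeeping complexes, none of 45 cytosolic ribosomal protein genes passed (median -0.12). In oxidative phosphorylation 1 of 44 was higher, NDUFA9 of complex I (0.82 ± 0.19, adjusted p = 0.0311), with a list median of -0.09. A second element of UQCRC2, a core protein of complex III, passed as well (0.76 ± 0.19, adjusted p = 0.0311). Of 24 ubiquitin and proteasome genes 2 were higher, PSMD13 (0.82 ± 0.17, adjusted p = 0.0311) and PSMB3 (0.62 ± 0.17, adjusted p = 0.0414), with a median of 0.03. In the endoplasmic reticulum list 1 of 28 was higher, the calcium-binding chaperone CALR (0.79 ± 0.19, adjusted p = 0.0311), with a median of 0.01. For the P450 and conjugation list it was 1 of 6, POR, the electron donor of P450 enzymes (0.72 ± 0.21, adjusted p = 0.0453), with a median of 0.15. With scaled arrays it was 2 of 6, with a median of 1.02, against 2.84% of all elements. By the element counted, none passed among 22 redox defence genes (GPX3, the plasma glutathione peroxidase, 0.19 ± 0.82), 18 chaperones, 7 genes of the urea cycle and amino acid catabolism and 7 of the growth hormone and IGF axis. Second elements of SOD2, the mitochondrial superoxide dismutase (0.88 ± 0.21), and of IGFBP3, a carrier of IGF (0.81 ± 0.21), did pass (each adjusted p = 0.0311). PCK1, GHR and IGF1 were not measured.

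Of 47 measured cell type markers 3 were higher (TF, CD163 and SPP1) and none lower, 6.38% against 7.53% of all elements. With arrays scaled to a common spread, 2.84% of all elements were higher and 2.03% lower. There, 5 of 12 macrophage, 2 of 7 sinusoidal endothelial and 2 of 4 hepatocyte markers were higher. Of 8 stellate cell markers 3 were lower. That scaling multiplies all centred values of an array by a single factor, so levels far from the median move most. Its part in these counts was not tested. The medians under that scaling were 0.67 for macrophage, 1.08 for sinusoidal endothelial and -0.66 for stellate cell markers. In bulk liver, fewer cells of a type and less RNA per cell cannot be told apart. All 7 measured markers of sinusoidal endothelium were above 0, with a median of 0.47 and none past the threshold by the element counted. LYVE1, a hyaluronan receptor, changed by 0.79 ± 0.29 (adjusted p = 0.126) and KDR, a VEGF receptor, by 0.49 ± 0.19 (adjusted p = 0.16), with 8 of 8 orientation-matched changes of KDR positive. Second elements of KDR (1.35 ± 0.24, adjusted p = 0.0311) and of PECAM1, an adhesion molecule of endothelial cells (0.59 ± 0.17, adjusted p = 0.0463), passed. Of 12 macrophage markers 1 was higher, the haemoglobin scavenger receptor CD163, at -0.05, 0.16, 0.24 and -0.18 on day 28 and -1.09, -0.23, -1.15 and -1.18 on day 14. Its groups did not overlap and its change was 0.95 ± 0.20 (adjusted p = 0.0311), at 1.45 with liver in Cy3 and 0.45 with liver in Cy5. The list's median was 0.06. The 4 hepatocyte markers had a median of 0.59, with TF past the threshold, while SLC10A1, which brings bile acids into hepatocytes, missed it (1.15 ± 0.37, adjusted p = 0.0747).

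**Figure D3:**
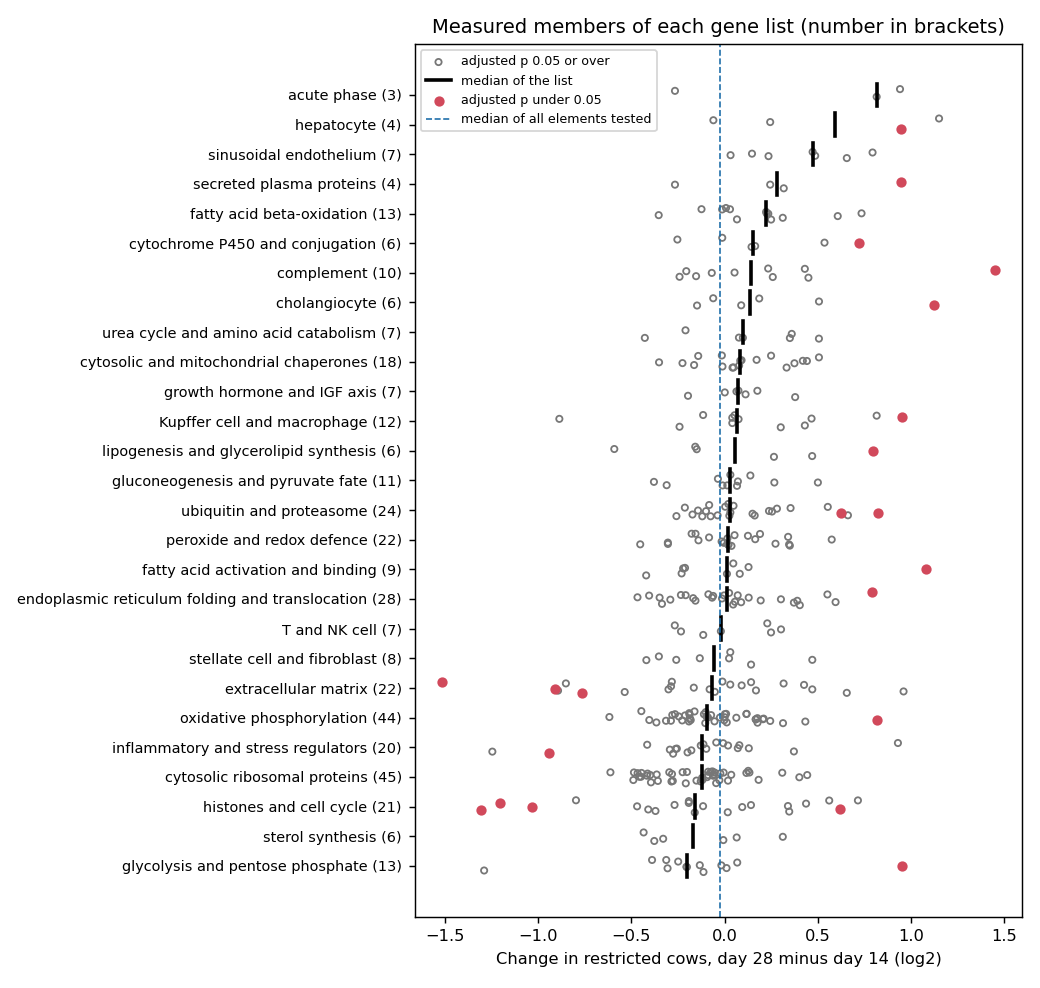
Change from day 14 to day 28 in restricted cows (log2, x axis) of every measured member of the gene and marker lists with at least 3 members; filled points passed at an adjusted p under 0.05, black bars are list medians and the dashed line is the median of all elements. Most members lie within 0.5 of 0, and the filled points are spread over many lists, with 3 on the low side in the matrix list and 3 in the histone and cell cycle list.

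The cows moved in opposite directions for several metabolic genes that did not pass. In cow 6952 the median change of the fatty acid activation and binding list was 0.97, against -0.35, -0.14 and 0.03 in cows 6877, 7045 and 7105. DBI, the acyl-CoA binding protein, was at 0.81, 1.08, 1.34 and -0.42 on day 28, against 1.84, -0.51, 1.47 and 1.70 on day 14. Cow 6952 was the lowest on day 14 and cow 7105 the lowest on day 28. CYB5A, cytochrome b5, had changes of -1.01, 1.80, 0.01 and -1.81 in cows 6877, 6952, 7045 and 7105, and CPT1A of -0.85, 1.27, -0.30 and -1.53. LDHA, the lactate dehydrogenase chain of anaerobic tissue, followed the same order of signs, with -1.53, 1.44, -0.34 and -1.09. The SEs of the mean changes of these genes were 0.34 to 0.47. The second CPT1A element changed by -0.16, 0.86, 0.62 and -0.35 in cows 6877, 6952, 7045 and 7105, so cow 7045 rose with cow 6952 there.

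The same days in the ad libitum cows show which of these changes recur in other animals. The lower elements did: 88 of the 90 had a negative change in the ad libitum cows, against 47.2% of all elements, with a median of -0.58. In that diet's own test 75 elements were lower, and 26 were shared, which is 28.9% of the 90 and 34.7% of the 75. H2B changed by -2.37, H1-2 by -1.85, TNC by -1.50, ITPK1 by -1.66 and CD109 by -1.03 in the ad libitum cows, each with 4 of 4 cows negative.

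Higher elements did not recur as a set. In the ad libitum cows 70 of the 527, or 13.3%, had a positive change, against 52.8% of all elements, and the median was -0.24. Of 62 elements higher in that diet's own test 7 were shared, 1.33% of the 527 and 11.3% of the 62. The genes with a positive change in all 4 ad libitum cows included SERPING1 (1.07), SLC27A2 (0.85) and TF (1.11), while CD163 (-0.23), GGA1 (-0.34) and SCNM1 (-0.42) had negative means.

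**Figure D4:**
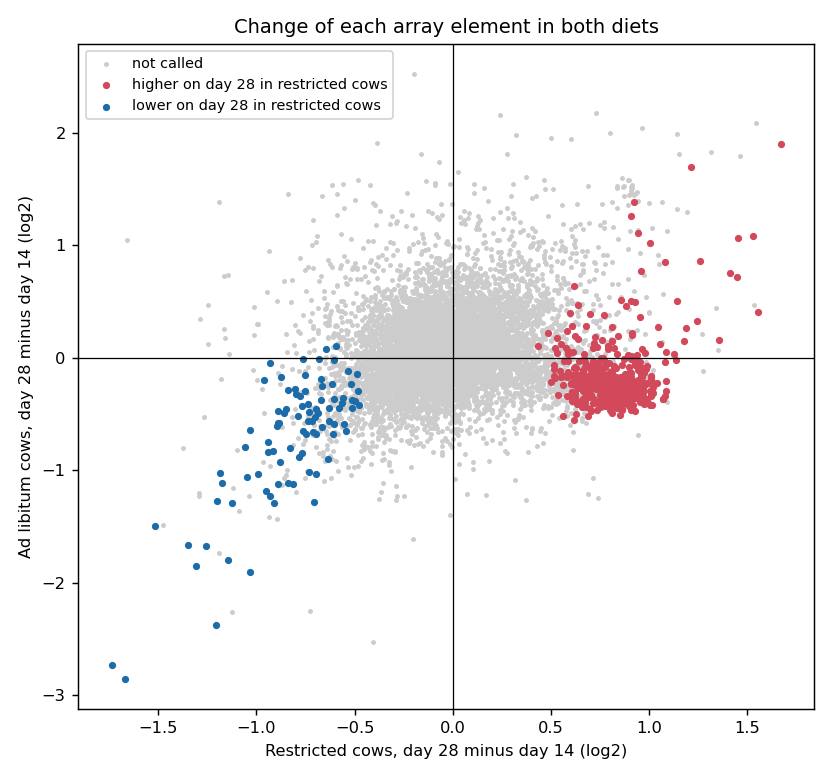
Change from day 14 to day 28 of every tested element in restricted cows (x axis) and ad libitum cows (y axis), both in log2; coloured points passed in restricted cows. The lower elements lie along the diagonal, while most higher elements form a dense group near 0.8 in restricted cows and slightly below 0 in ad libitum cows.

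Tested directly, the change differed between the diets for 1 element of 8196 (0.0122%), with 1269 at an unadjusted p under 0.05. It belongs to LOC619094, a protein-coding gene without a described role in the annotation used here, which changed by -0.41 in restricted cows and by -2.52 in ad libitum cows, a difference of 2.12 ± 0.28 (adjusted p = 0.0109). Next by p came WDR82, TDG, SFN, H2AJ and LAMC1, with restricted minus ad libitum differences of 1.08 to 1.41 (each adjusted p = 0.0531). TDG, a DNA glycosylase, had passed in restricted cows (0.68 ± 0.15, adjusted p = 0.0311) and changed by -0.44 in ad libitum cows. In the opposite direction MED15, a Mediator subunit, differed by -1.89 (adjusted p = 0.0531), with its change in restricted cows measured in 3 of the 4 cows. Leaving out cow 6952 raised the count of differing elements to 740, and leaving out ad libitum cow 7161 raised it to 332. Leaving out ad libitum cow 6886, 7050 or 7187, or treating each cow's change as 1 value, gave 0.

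In restricted cows the called elements had levels on day 14 near those of days -14 and 1. Their levels on day 28 were nearer those of days -65, -30 and 49. In restricted cows the 90 lower elements had a median level of -0.57 on day -65, -0.45 on day -30, 0.14 on day -14, 0.07 on day 1, 0.02 on day 14, -0.73 on day 28 and -0.69 on day 49. The 527 higher elements were at 0.04, 0.02, -0.80, -1.01, -0.89, -0.07 and 0.22 on those days in restricted cows. In ad libitum cows the same 527 elements did not follow that course, at 0.05, -0.03, -0.30, 0.01, 0.24, -0.02 and 0.26. Because the elements were chosen on days 28 and 14, those 2 days describe the choice in restricted cows, and the other days do not.

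Single genes took the same steps. H2B stood at -1.88, -1.98, 0.11, -0.23, -0.79, -2.00 and -2.01 on days -65, -30, -14, 1, 14, 28 and 49 in restricted cows. TF ran the other way, at 5.62, 4.80, 4.02, 4.00, 4.10, 5.05 and 4.92. COASY and FOSL2 were high on days -14, 1 and 14 in both diets. The agreement of the dye orientations was also lower on those 3 days: its median per group was 0.38 to 0.60 in the 6 groups of days -14, 1 and 14, and 0.60 to 0.77 in the 8 groups of the other days. The labels name no hybridisation batch, so a batch of arrays and the days cannot be told apart.

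**Figure D5:**
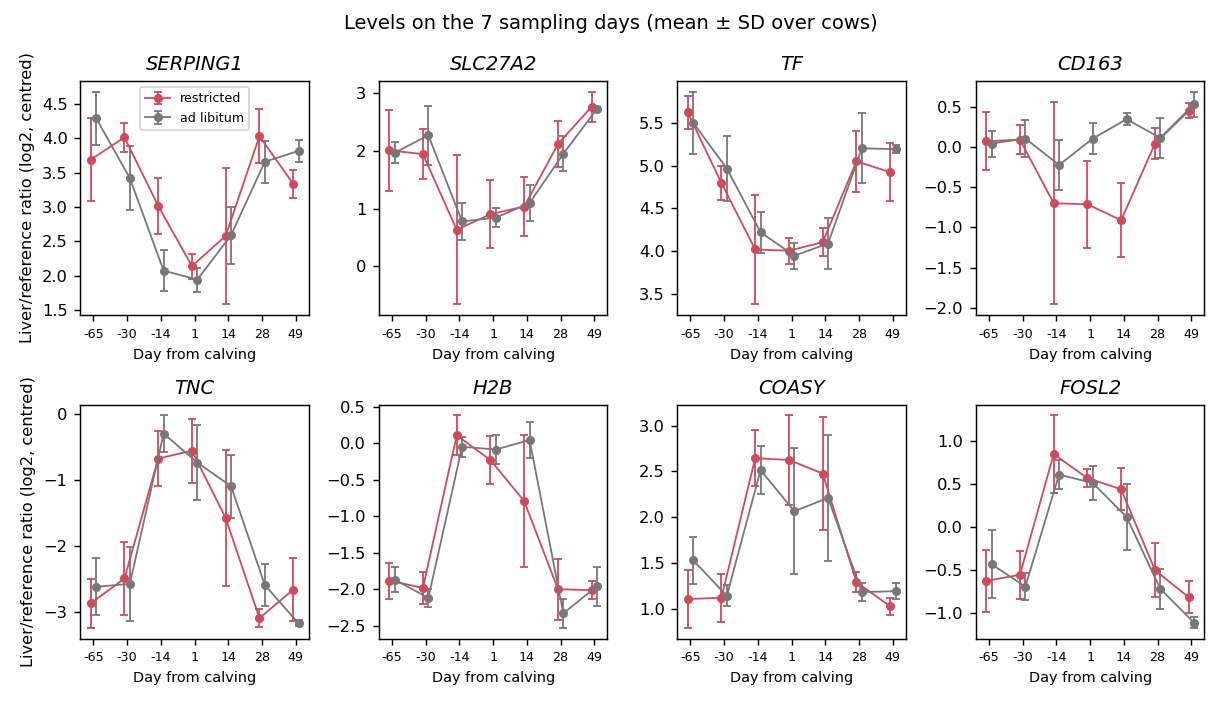
Level of 8 genes (log2 of the liver to reference ratio, y axis) on the 7 sampling days from day -65 to day 49 in restricted and ad libitum cows; points are means and bars SDs over 4 cows, except 3 ad libitum cows on day -65 and 2 on day 49. Between day 14 and day 28 all 8 genes move towards their level on day -30 in restricted cows, and CD163 has no such step in ad libitum cows.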

How the data were processed

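The samples are liver RNA of 8 cows on 2-colour cDNA arrays, 106 in all. Per the labels, images were scanned with a Scanarray 4000 and processed with GenePix 4.0. The deposited values are log2 ratios of Cy5 over Cy3 per spot, as checked on the opposite signs of the dye orientations; what background correction or normalization the authors applied is not given in the sources used here. Intensities are not used here, so signal over background is unknown.

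The sign was turned where liver was Cy3, duplicate spots were averaged, every array had its median subtracted, and the 2 orientations of a cow and day were averaged where both had a value. The number of arrays limits the precision. Elements with at least 2 cows per group were tested with limma 3.58.1 (R 4.3.3, statmod 1.5.0): group means of diet and day over 16 cow-days, cow as a random block (estimated within-cow correlation 0.00047), Benjamini-Hochberg adjustment over all elements. The cow numbers pair the days because they name the same animal, but at that correlation the fit was in effect unpaired. Without the block it called 617 elements as well, and the paired fit of the restricted cows called 0. Replicates are separate cows. On simulated data the fit recovered 67 of 100 changes of 1 and 91 of 100 changes of 2 on the log2 scale, with 7 false calls. The simulation used the same SD for all groups of an element and independent elements. It therefore cannot show how the fit behaves with the wider spread of day 14.

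Gene symbols come from GEO's platform annotation, updated by gene ID. Named were the 15 largest increases and decreases past the threshold with 4 of 4 cows alike, up to 4 members per list by p, 13 followed genes (one not reported here, and PC, PCK1, PDHA1, CPT1A, ACSL1, SREBF1, GHR, IGF1, SLC10A1, SLC27A2, GPX3, H2B) and up to 6 elements a direction for the diets' difference; of several elements of a gene, that with the most values, then the highest mean. The members and 32 lists were chosen with earlier results of these data known. Alternatives were cow block, groups fitted, centring, scaling, dye, filters, array weights and left-out cows.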

Additional observations from a re-analysis of the deposited data

Results flagged for a closer look

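Of 171 sets of 4 restricted cows examined for the named genes (each gene on each day), 11 held a cow far from the other 3, and chance flags about 1 in 20. On day 14 it was cow 6952 in 7 of them: SIK2 (-0.49, others -1.78 to -1.58), MACROD1 (0.60, others -0.90 to -0.77), IL22RA1 (-0.20, others -1.44 to -1.35), DBI (-0.51, others 1.47 to 1.84), AGPAT1 (-0.47, others -1.20 to -1.10), ASS1 (1.59, others 1.03 to 1.09) and CD163 (-0.23, others -1.18 to -1.09). Cow 6877 stood apart for KDR on day 14 (3.02, others 2.45 to 2.54). On day 28 cow 7105 was low for PDHA1 (-0.13, others 0.34 to 0.39) and CYB5A (3.54, others 4.96 to 5.07), and cow 6952 was low for TAGLN (-1.99, others -1.74 to -1.70).

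The change of LOC619094 differed between the diets by the test of the difference itself, by 2.12 on the log2 scale (restricted minus ad libitum, adjusted p = 0.0109), with 4 of 4 ad libitum cows and 3 of 4 restricted cows negative.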

How the results depend on the processing

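The number of calls in restricted cows depended on the processing. It stayed within 1.5 times of 617 without a cow block (617), with complete elements (660), with no filter (617) and with spot rows centred (424). It was 399 with scaled arrays, 152 after quantile normalization, 157 with all 14 groups fitted and a random cow block, 1589 with array weights, 1251 with liver in Cy3 and 0 with liver in Cy5. Uncentred arrays, the paired fit with a fixed cow block, the 2 restricted groups alone and a covariate for orientation agreement each gave 0 (734, 1275, 1351 and 1599 at an unadjusted p under 0.05), and dropping cow-days with an orientation correlation under 0.6 gave 1. Leaving out 1 cow gave 0 to 1014. The cause of these differences was not tested.

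For the difference between diets, uncentred or scaled arrays, either orientation alone and each cow's change as 1 value with a fixed replicate block gave 0 in place of 1 (642, 1082, 1177, 1073 and 1209 at an unadjusted p under 0.05), and leaving out 1 cow gave 0 to 740.

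Of the 45 named genes that passed, 45 kept the call with array weights, 33 with scaled arrays and 28 after quantile normalization, and none in the fits that called 0. Of genes that did not pass, PC was -0.33 uncentred, -0.057 scaled, -0.19 in Cy5, -0.060 after quantile normalization, -0.063 with the agreement covariate, -0.18 without low-agreement cow-days, -0.13 with rows centred and -0.048 to 0.094 without 1 cow. SREBF1 was -0.091 uncentred, -0.26 with array weights and -0.0091 to 0.69 without 1 cow; ACSL1 -0.31 uncentred and -0.26 to 0.25 without 1 cow; GPX3 -0.17 uncentred, -0.021 in Cy5 and -0.012 without low-agreement cow-days; CPT1A 0.12 scaled and -0.89 to 0.039 without 1 cow. MSMO1 was 0.29 scaled and -0.94 to 0.11 without 1 cow, CYB5A 0.90 scaled, 0.13 with the covariate, 0.057 without low-agreement cow-days and -0.94 to 0.27 without 1 cow, DBI 0.044 without those cow-days and -1.09 to 0.14 without 1 cow, LDHA -0.99 to 0.0041 without 1 cow and H2AJ 0.0051 in Cy3. Signal over background is unknown, and 4 cows a day limit what could be called.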

Other observations

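The higher elements were spread over the spot numbers in a pattern that a reader of these arrays may want to look at. In rows of 18 spot numbers, within runs of 342 (both lengths chosen after the values were seen), the first 7 of 19 rows held 41 to 59 higher elements each and the other 12 rows 0 to 23. The median change per row ran from -0.14 to 0.16. Centring each array within these rows, an alternative chosen after seeing the data, called 360 higher and 64 lower elements, and 404 of the 617 calls remained.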
